A study of Homo sapiens with 8 samples.

Results

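The epithelial-mesenchymal transition (EMT) genes described here are 10 genes chosen by name. They are the transcription factors SNAI1, SNAI2, TWIST1, ZEB1 and ZEB2, the epithelial surface genes CDH1 and EPCAM, and the mesenchymal genes CDH2, VIM and FN1. All 10 were found by exact gene symbol both among the 11644 genes of the day 2 count table and among the 14070 genes of the day 0 FPKM table. RNA-seq was made from H1, an established human embryonic stem cell line, in a SETD7 knockout (KO) and in wild-type (WT) cells. SETD7 encodes a lysine methyltransferase of histone H3 and of other proteins. At day 2 of differentiation towards blood lineages there were 3 KO and 3 WT libraries, and at day 0 there was 1 KO and 1 WT library. All 8 libraries, day 0 included, carry the same differentiation treatment in their labels. The labels give no allele, no way in which the knockout was made, no number of clones and no separate cultures for the replicates. P-values therefore measure only the spread between these libraries, which may be technical.

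As background, EMT is the change in which cells of a polarised, tightly joined sheet loosen their junctions and become motile, and it takes place when mesoderm leaves the primitive streak of the embryo. SNAI, TWIST and ZEB proteins bind E-box sequences in DNA, and the SNAI and ZEB proteins repress the E-cadherin gene CDH1 there. Loss of E-cadherin, gain of N-cadherin (CDH2), and high vimentin (VIM) and fibronectin (FN1) are the usual readouts of the mesenchymal state. Human embryonic stem cells grow as an epithelial sheet with E-cadherin and EPCAM at their surface.

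The targeted gene was lower in every KO library. SETD7 (chromosome 4, 139495941 to 139606699, minus strand, GRCh38) had 32.9, 28.9 and 33.7 CPM (counts scaled to a common library size) in the KO libraries at day 2, against 54.8, 56.2 and 55.6 CPM in the WT libraries (log2 fold change −0.80, edgeR adjusted p 9.51e-13). At day 0 it had 1.48 FPKM in the KO library and 3.53 FPKM in the WT library. Day 2 totals ran from 27880068 to 39553614 counts per library, and the day 0 depth is unknown. Among markers of cell identity at day 2, 9 genes of undifferentiated cells summed to 4121 to 4138 CPM in the KO libraries and 3989 to 4044 CPM in the WT libraries. That list was split, with DNMT3B and TDGF1 higher in KO, NANOG (−0.57) and PODXL (−0.36) lower, and 5 genes not past the test. The 9 primitive streak genes summed to 3031 to 3095 CPM in KO and 2973 to 3022 CPM in WT, sums carried mostly by MIXL1 and EOMES. Of these 9, LHX1, GSC, MESP2 and MIXL1 rose and EVX1 (−0.81), FGF17 (−0.37) and T (−0.26) fell. The 5 definitive endoderm genes summed to 9191 to 9354 CPM in KO and 8360 to 8460 CPM in WT, most of it from CER1 (8432 CPM in KO and 7482 CPM in WT), which rose, while SOX17 fell (102.1 CPM in KO and 151 CPM in WT, −0.56) and GATA6, CXCR4 and HHEX did not pass. Beside these lists, 23.3% of all 11475 genes tested at day 2 passed at an edgeR adjusted p under 0.05, with 12.3% higher in KO and 1262 genes lower. The part of these cell types in the EMT results was not tested. At day 0 the 10 markers of undifferentiated cells summed to 2356 FPKM in KO and 2247 FPKM in WT, and the 9 streak markers to 2.21 FPKM in KO and 2.04 FPKM in WT. The first list was split there too. By 1.5-fold on the log2(FPKM + 1) scale, 3 of its 10 genes were higher in KO, against 4.81% of all genes kept. These were L1TD1 (206 FPKM in KO and 97.5 FPKM in WT), DNMT3B (527 and 318) and NANOG (22.3 and 13.7). None was lower by that much, with PODXL (log2 ratio −0.55), SOX2 (−0.47) and POU5F1 (−0.40) the lowest.

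The day 2 comparison asks how the EMT genes differ between the SETD7 KO and WT cells at day 2 of differentiation towards blood lineages. TWIST1 rose 1.86-fold in the KO, while SNAI2, VIM and EPCAM fell to 0.80, 0.89 and 0.84 of their WT levels. SNAI1, ZEB1, ZEB2, CDH1, CDH2 and FN1 did not pass the test. All 10 genes passed the filter on low counts, and 4 of them passed edgeR's quasi-likelihood test at an adjusted p under 0.05. Among all 11475 genes tested, 23.3% passed, with 12.3% (1406 genes) higher in KO and 1262 genes lower. The EMT genes past the test were 1 higher and 3 lower of 10. TWIST1 alone both passed and differed by at least 1.5-fold, as did 1.73% of all genes tested. The RNA is from bulk cells, so fewer cells of a type and less RNA per cell cannot be told apart.

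**Figure D1:**
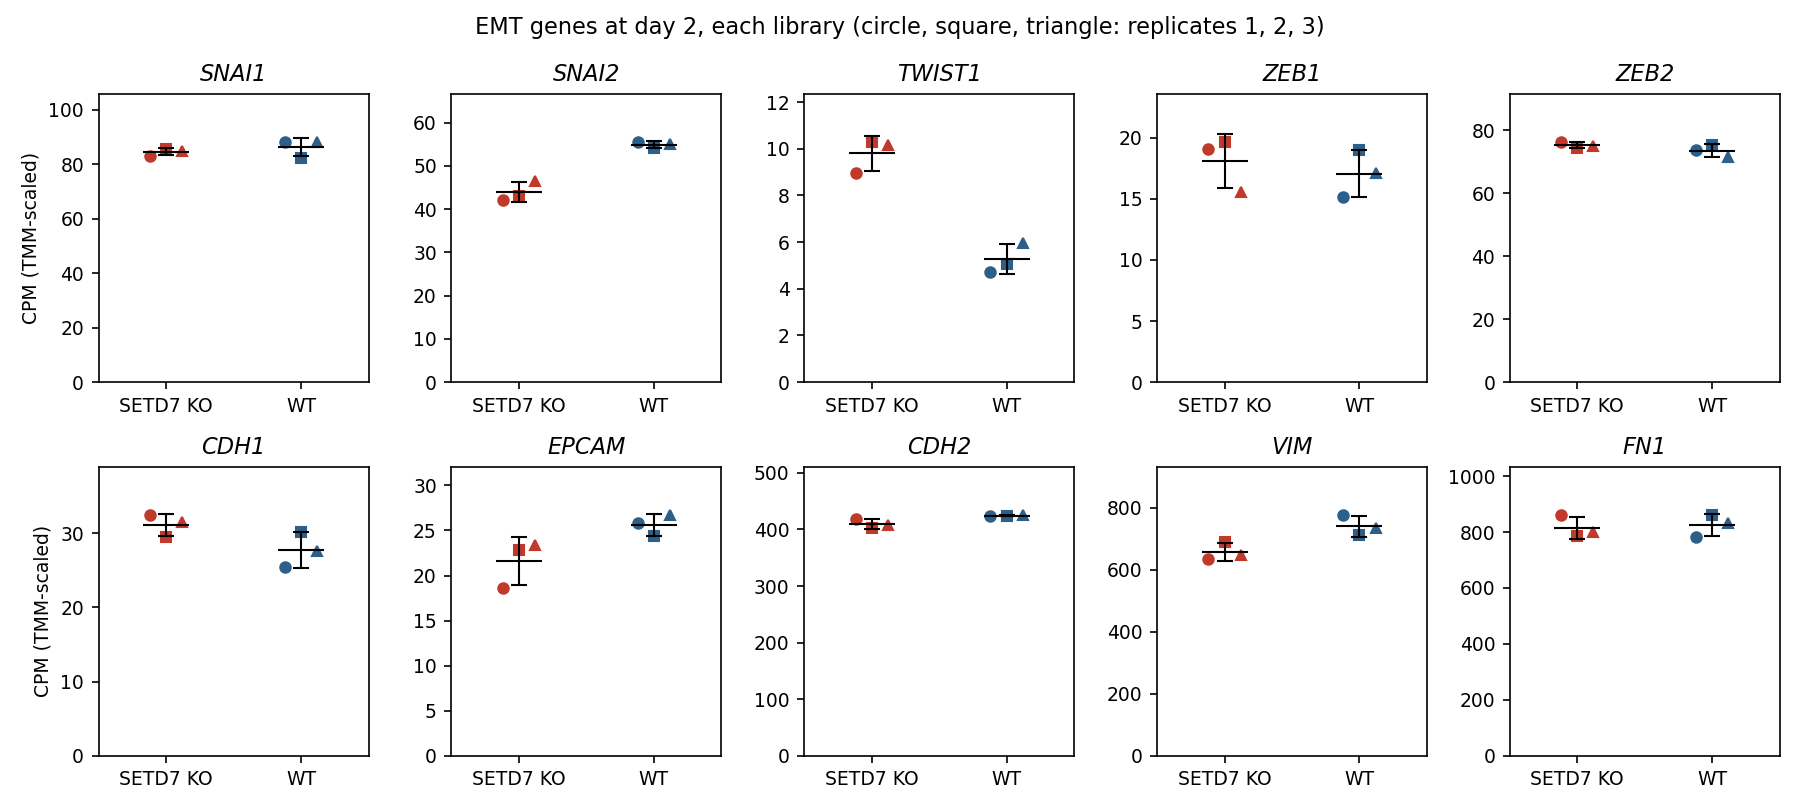
Levels of the 10 EMT genes in each day 2 library, in TMM-scaled CPM on a linear axis from 0, with SETD7 KO in red and WT in blue; lines and bars are the mean and SD of 3 libraries. TWIST1 is at 8.94 to 10.3 CPM in KO and 4.74 to 5.97 CPM in WT, and SNAI2, VIM and EPCAM sit lower in all 3 KO libraries than in any WT library.

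TWIST1 (chromosome 7, 19020991 to 19117672, minus strand) encodes a basic helix-loop-helix factor of mesoderm and neural crest. It had 8.94, 10.3 and 10.1 CPM in KO replicates 1, 2 and 3, against 4.74, 5.08 and 5.97 CPM in WT replicates 1, 2 and 3. Every KO library was above every WT library. Its log2 fold change was 0.89 (SE 0.12, edgeR adjusted p 1.35e-06), with a 95% interval of 0.64 to 1.14. It was the largest change in size of the 10, and 54th in size among the 11475 genes tested. The value rests on few reads, 302 to 360 per KO library and 131 to 180 per WT library. Among neural crest markers beside it, NGFR and TFAP2A were measured and summed to 12.6 to 13.2 CPM in KO and 8.1 to 8.94 CPM in WT, with NGFR higher and TFAP2A not past the test. SOX10, FOXD3, TFAP2B and PAX3 had no matching symbol in the day 2 counts. The part of neural crest cells in the TWIST1 result was not tested.

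SNAI2 (Slug; chromosome 8, 48917604 to 48921740, minus strand) encodes a zinc finger repressor of epithelial genes. It had 42.1, 43.1 and 46.5 CPM in the KO libraries, against 55.6, 54.1 and 55.0 CPM in the WT libraries. The genotypes did not overlap. The log2 fold change was −0.32 (SE 0.053, edgeR adjusted p 1.88e-05). Its close relative SNAI1 (Snail; chromosome 20, 49982999 to 49988886, plus strand), a regulator of gastrulation in the mouse, had 83.2, 85.7 and 85.03 CPM in KO and 88.1, 82.5 and 88.3 CPM in WT. The SNAI1 values of the genotypes overlapped, and SNAI1 missed the threshold (−0.03, 95% interval −0.12 to 0.06, edgeR adjusted p 0.689). The log2 ratio of SNAI2 to SNAI1 counts within a library, which does not depend on library scaling, was −0.98, −0.99 and −0.87 in KO and −0.66, −0.61 and −0.68 in WT.

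ZEB1 and ZEB2 encode the zinc finger and homeodomain repressors of E-cadherin. ZEB1 (chromosome 10, 31318495 to 31529814, plus strand) had 19.1, 19.7 and 15.5 CPM in KO and 15.1, 18.9 and 17.1 CPM in WT. ZEB2 (chromosome 2, 144364364 to 144524583, minus strand) had 76.4, 74.4 and 75.1 CPM in KO and 73.8, 75.4 and 71.5 CPM in WT. Both genes overlapped between the genotypes and neither passed. The log2 fold change of ZEB1 was 0.09 (95% interval −0.10 to 0.27, edgeR adjusted p 0.544), and that of ZEB2 was 0.03 (95% interval −0.06 to 0.12, edgeR adjusted p 0.631).

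RefSeq promoter windows on GRCh38.p14, of 250 bases before and 50 bases after a gene start, were matched for 5 of the 10 genes (ZEB1, ZEB2, CDH2, VIM and FN1), in 12 windows. They were searched on both strands for the 6-base E-box that SNAI and ZEB proteins are known to bind, CAGGTG, which reads CACCTG on the opposite strand. It was found in 2 of the 12 windows (16.7%), both of ZEB1, and in 20.6% of the 35116 windows of all genes. Most of the 12 windows belong to ZEB1. A match describes the sequence only. The ZEB1 window with the most matches is printed because it holds 3, which start 242 and 85 bases before and 33 bases after the start site and are in capitals. The VIM window is printed as that of the only gene of the 5 that passed the test at day 2, and it holds no match to these letters.
ZEB1, chr10:31318966-31319265, plus strand: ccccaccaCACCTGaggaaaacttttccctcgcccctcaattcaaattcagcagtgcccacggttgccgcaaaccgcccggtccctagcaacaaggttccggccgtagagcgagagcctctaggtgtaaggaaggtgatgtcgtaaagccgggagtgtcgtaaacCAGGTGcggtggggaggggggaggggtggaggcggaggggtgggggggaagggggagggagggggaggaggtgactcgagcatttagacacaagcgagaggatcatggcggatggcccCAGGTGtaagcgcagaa
VIM, chr10:17227991-17228290, plus strand: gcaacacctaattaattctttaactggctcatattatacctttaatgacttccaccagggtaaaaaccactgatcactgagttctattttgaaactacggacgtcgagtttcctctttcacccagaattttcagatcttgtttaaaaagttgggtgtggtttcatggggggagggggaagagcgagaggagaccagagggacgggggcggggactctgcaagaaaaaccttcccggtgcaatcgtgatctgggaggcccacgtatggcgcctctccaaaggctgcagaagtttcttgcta

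Of the epithelial genes, EPCAM (chromosome 2, 47345158 to 47387601, plus strand) encodes a surface adhesion protein of epithelia and pluripotent cells. It had 18.6, 22.9 and 23.4 CPM in KO, against 25.9, 24.3 and 26.7 CPM in WT. All KO libraries were below all WT libraries, and KO replicate 1 was the lowest. The log2 fold change was −0.25 (SE 0.078, edgeR adjusted p 0.0167). This call depended on single libraries: the edgeR adjusted p was 0.202 without KO replicate 1 (log2 fold change −0.15), 0.0658 without WT replicate 1 and 0.0848 without WT replicate 3, within a range of 0.00775 to 0.202 over 13 alternatives.

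CDH1 (E-cadherin; chromosome 16, 68737225 to 68835548, plus strand) holds epithelial cells together at adherens junctions. It had 32.4, 29.5 and 31.5 CPM in KO and 25.4, 30.2 and 27.7 CPM in WT. The highest WT library was above the lowest KO library, and CDH1 did not pass (log2 fold change 0.17, SE 0.067, 95% interval 0.03 to 0.30, edgeR adjusted p 0.0715). Its interval, not adjusted for the number of genes tested, held only positive values. The edgeR adjusted p was 0.0354 without WT replicate 2 (log2 fold change 0.23), 0.041 without KO replicate 2 and 0.048 with upper-quartile scaling, within a range of 0.0354 to 0.347. The log2 ratio of EPCAM to CDH1 counts was −0.80, −0.37 and −0.43 in KO and 0.03, −0.31 and −0.05 in WT, so the ratio was lower in every KO library.

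Among the mesenchymal genes, VIM (vimentin; chromosome 10, 17228259 to 17237593, plus strand) encodes an intermediate filament of mesenchymal cells. It had 633, 690.1 and 648 CPM in KO, against 776, 710.4 and 733 CPM in WT. The genotypes did not overlap, and the nearest libraries of the genotypes were KO replicate 2 and WT replicate 2. The log2 fold change was −0.17 (SE 0.035, edgeR adjusted p 0.000455).

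CDH2 (N-cadherin; chromosome 18, 27950966 to 28177446, minus strand), the cadherin of mesoderm and neural tissue, had 418, 402 and 408 CPM in KO and 423, 424 and 425 CPM in WT. All 3 KO libraries were lower, yet CDH2 did not pass (log2 fold change −0.05, 95% interval −0.11 to 0.01, edgeR adjusted p 0.234). FN1 (fibronectin; chromosome 2, 215360440 to 215436172, minus strand), a matrix protein that migrating mesoderm moves on, had 861, 785 and 801 CPM in KO and 782, 860.4 and 831 CPM in WT. Its genotypes overlapped, and FN1 missed the threshold (−0.02, 95% interval −0.09 to 0.06, edgeR adjusted p 0.80004). Over the 10 genes, 5 had no overlap between genotypes, 4 of them lower in KO, where 37.7% of all tested genes had none and 18.8% had none and were lower.

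The cadherin pair can be read within each library. The log2 ratio of CDH1 to CDH2 counts was −3.69, −3.77 and −3.70 in KO and −4.06, −3.81 and −3.94 in WT. Every KO library was above every WT library, with means of −3.72 ± 0.043 in KO and −3.94 ± 0.12 in WT (SD, n = 3 each), a difference of 0.22. The difference was 0.16 without WT replicate 1 and 0.28 without WT replicate 2. The log2 ratio of TWIST1 to SNAI2 was −2.24, −2.06 and −2.20 in KO and −3.55, −3.41 and −3.20 in WT. This pair sets the gene that rose beside one that fell, so its separation follows from their own results.

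**Figure D2:**
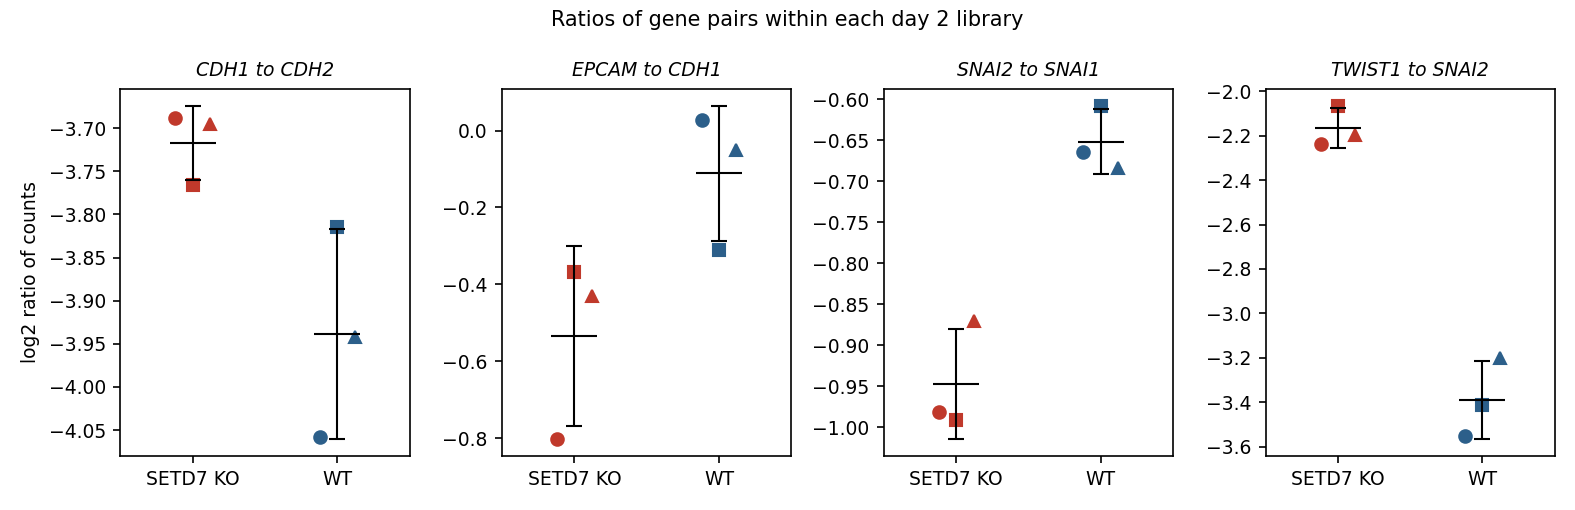
Log2 ratios of the counts of gene pairs within each day 2 library, with SETD7 KO in red and WT in blue (circle, square and triangle for replicates 1, 2 and 3; lines and bars are the mean and SD of 3 libraries). The axes differ between panels and do not start at 0. The TWIST1 to SNAI2 ratio averages −2.17 in KO and −3.39 in WT. The pairs EPCAM to VIM and ZEB1 to ZEB2, which overlapped between the genotypes, are not drawn.

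Divided by the length of each gene's merged exons, the day 2 CPM give an order of levels. VIM was the highest of the 10, at 127 ± 5.78 CPM per kilobase in KO and 143 ± 6.43 in WT (SD, n = 3 each), followed by CDH2 with 82.7 ± 1.67 in KO and 85.7 ± 0.241 in WT. SNAI1 (50.2 ± 0.773 in KO and 51.2 ± 1.98 in WT) and FN1 (47.1 ± 2.31 in KO and 47.6 ± 2.28 in WT) came next, and their libraries overlapped in both genotypes. SNAI1 thus stood at the 93.3rd percentile of 11323 genes in KO and the 93.2nd in WT, among the structural genes in level. SNAI2 had 12.9 ± 0.678 CPM per kilobase in KO and 16.2 ± 0.222 in WT, EPCAM 8.58 ± 1.04 in KO and 10.2 ± 0.476 in WT, and CDH1 5.04 ± 0.239 in KO and 4.49 ± 0.386 in WT. TWIST1 (4.82 ± 0.367 in KO and 2.59 ± 0.313 in WT) overlapped CDH1 in KO and ZEB2 in WT. ZEB2 (3.01 ± 0.04 in KO and 2.94 ± 0.078 in WT) and ZEB1 (2.09 ± 0.258 in KO and 1.97 ± 0.221 in WT) followed TWIST1 in KO, while in WT TWIST1 lay between ZEB2 and ZEB1; merged exons sum all annotated transcripts and so understate genes with many isoforms. Per length, CDH2 was 16.4 times CDH1 in KO and 19.1 times CDH1 in WT.

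The strand setting of the counting is not given in the labels or headers, so reads of overlapping genes cannot be told apart. Exons of VIM overlap VIM-AS1 and another antisense gene, those of ZEB1 and ZEB2 overlap ZEB1-AS1 and ZEB2-AS1, and those of TWIST1, CDH1 and CDH2 each overlap an unnamed antisense locus. SNAI1, VIM and ZEB2 each have an annotated pseudogene. Values of these genes are uncertain to that extent.

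The day 0 comparison sets 1 KO library beside 1 WT library, so it has no replicate check and no test. CDH1, EPCAM, VIM, FN1, CDH2 and SNAI1 reached 1 FPKM in either library. SNAI2, TWIST1, ZEB1 and ZEB2 did not. None of the 6 genes kept differed by 1.5-fold on the log2(FPKM + 1) scale, a scale that understates the change of low genes, where 13.6% of all 13284 genes kept did.

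**Figure D3:**
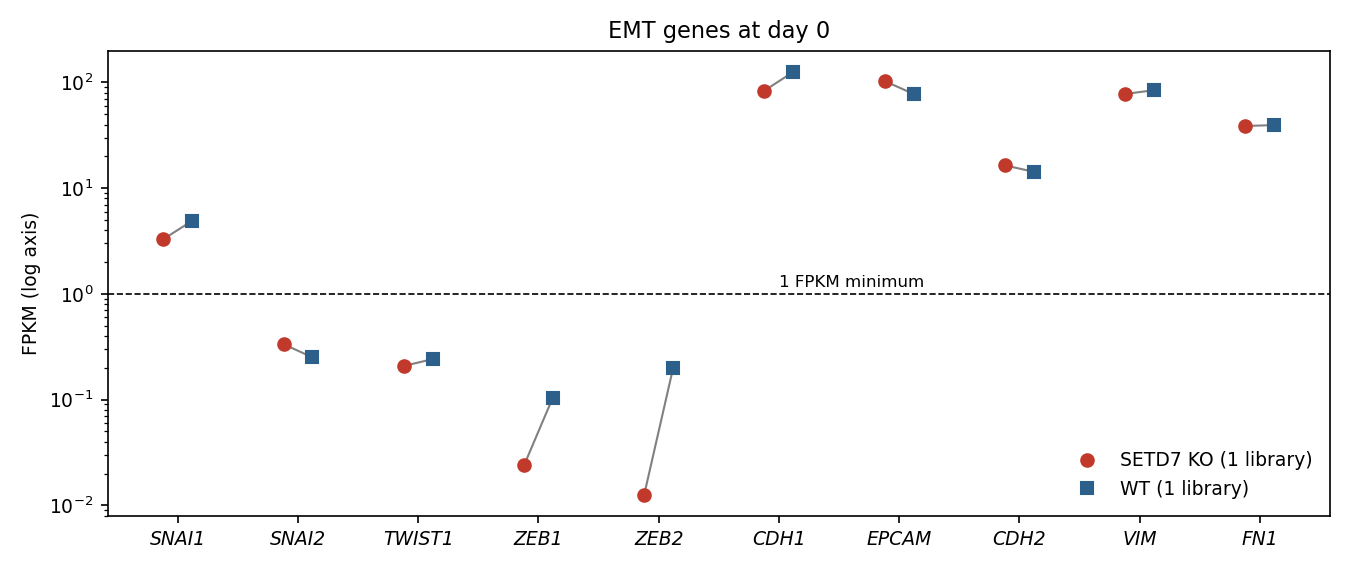
FPKM of the 10 EMT genes at day 0 on a log axis, 1 SETD7 KO library (red circle) and 1 WT library (blue square) each; the dashed line is the 1 FPKM minimum. The epithelial and structural genes lie between 14.3 and 126 FPKM, SNAI1 at 3.30 and 4.92 FPKM, and the other 4 factors at 0.335 FPKM or less.

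At day 0 CDH1 had 83.8 FPKM in KO and 126 FPKM in WT, a log2 ratio of −0.582 that lies just inside the 1.5-fold limit of 0.585. EPCAM had 103 FPKM in KO and 77.9 FPKM in WT (0.40). The EPCAM to CDH1 ratio was 1.23 in KO and 0.619 in WT, so the order of these epithelial genes was opposite in the 2 libraries.

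VIM had 77.9 FPKM in KO and 84.6 FPKM in WT (log2 ratio −0.12), FN1 38.8 FPKM in KO and 39.5 FPKM in WT (−0.03), and CDH2 16.4 FPKM in KO and 14.3 FPKM in WT (0.19). CDH1 was 5.10 times CDH2 in KO and 8.81 times CDH2 in WT. At day 2, in counts per kilobase, the order of the cadherins was the other way round, in data of another unit and normalised separately.

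SNAI1, the only transcription factor among the 10 EMT genes above 1 FPKM at day 0, had 3.30 FPKM in KO and 4.92 FPKM in WT (log2 ratio −0.46). SNAI2 was listed at 0.335 FPKM in KO and 0.251 FPKM in WT, and TWIST1 at 0.208 FPKM in KO and 0.242 FPKM in WT. ZEB1 was listed at 0.0239 FPKM in KO and 0.105 FPKM in WT, and ZEB2 at 0.0127 FPKM in KO and 0.199 FPKM in WT. No ratio is given for these 4 genes, since the depth behind such levels is unknown.

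Set side by side, the log2 difference of KO from WT in EPCAM was −0.25 at day 2 and 0.40 at day 0, in CDH1 0.17 at day 2 and −0.58 at day 0, and in VIM −0.17 at day 2 and −0.12 at day 0. Whether the effects differ between the days could not be tested, because day 0 has 1 library a genotype and another unit.

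**Figure D4:**
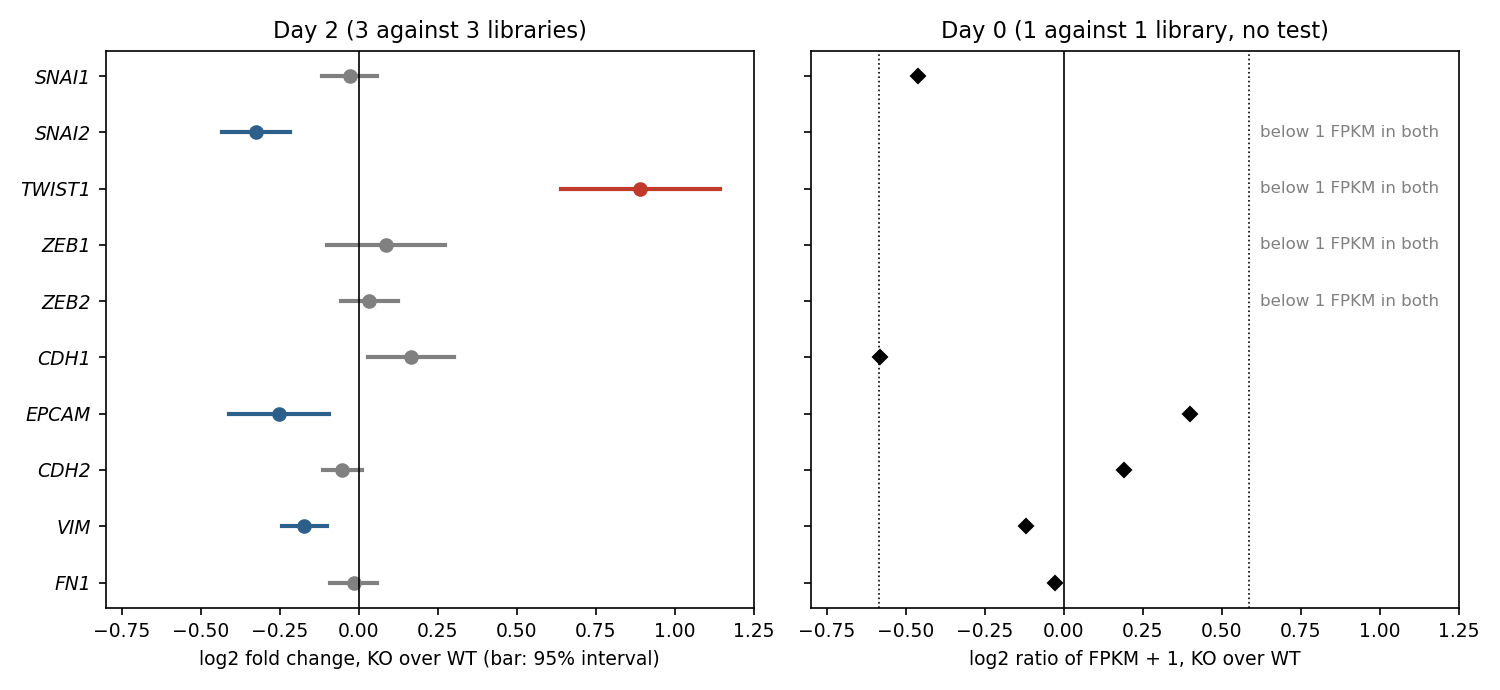
Log2 differences of SETD7 KO over WT for the 10 EMT genes, on the same x axis for both days. Left, day 2 fold changes with 95% intervals, in red or blue for genes higher or lower at an adjusted p under 0.05 and grey otherwise, with TWIST1 at 0.89 and SNAI2 at −0.32; right, day 0 ratios of FPKM + 1 for the 6 genes of at least 1 FPKM, with dotted lines at 1.5-fold.

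Other genes of the process were counted in 5 lists at day 2. In the list of mesenchymal adhesion, cytoskeleton and matrix genes, 17 of 30 tested genes rose and 2 fell, with a median log2 fold change of 0.19, against a median of −0.003 over all genes tested, of which 12.3% were higher and 1262 of 11475 were lower. CTGF, an older symbol of the matricellular gene CCN2, rose to 86.1 ± 2.06 CPM in KO, against 56.7 ± 1.53 CPM in WT (0.60, edgeR adjusted p 2.5e-12). The fibrillar collagen genes COL1A2 (360 ± 8.2 CPM in KO and 246 ± 5.4 CPM in WT) and COL5A2 (2387 ± 72.7 CPM in KO and 1972 ± 31.6 CPM in WT) also rose. The members that fell were FBN1, which encodes fibrillin of microfibrils (−0.18), and TNC, which encodes the matrix protein tenascin (−0.13). FBN1 was named after its values were seen, and 1 gene rather than 2 fell without WT replicate 2. Of 7 fibroblast and stroma markers, 5 of which are also in this list, 5 rose and LUM fell. They summed to 558 to 587 CPM in KO and 407 to 432 CPM in WT. COL3A1 and DCN had no matching symbol in the day 2 counts. The part of fibroblasts and stroma in the matrix result was not tested.

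Epithelial junction, keratin and polarity genes had 1 higher and 5 lower of 22 tested, with a median log2 fold change of −0.05. Over all genes tested, 12.3% were higher and 1262 of 11475 were lower. The keratins of simple epithelia KRT8 (626 ± 14.8 CPM in KO and 753 ± 16.02 CPM in WT, −0.27, edgeR adjusted p 3.23e-08), KRT18 (174 ± 10.1 CPM in KO and 209 ± 1.38 CPM in WT, −0.26) and KRT19 (107 ± 2.35 CPM in KO and 122 ± 1.62 CPM in WT, −0.19) fell. CTNND1, which encodes the catenin p120 that stabilises cadherins at the membrane, also fell (325 ± 8 CPM in KO and 354 ± 10.9 CPM in WT, −0.13). KRT8 and KRT18 overlap each other and have many annotated pseudogenes, and CTNND1 overlaps a readthrough gene, so their values are uncertain. PKP3, the member that rose (0.25) and was named after its values were seen, was not called without KO replicate 3 or without WT replicate 3, where the count of higher genes in this list was 0.

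Of the factors that guard the epithelial state, 7 of 16 were tested, and ESRP1, a splicing regulator of epithelial isoforms, was the only one past the test, where 23.3% of all genes tested passed. It had 23.2, 23.4 and 24.0 CPM in KO and 32.2, 34.4 and 35.4 CPM in WT, with no overlap (−0.53, edgeR adjusted p 7.6e-08). Its relative ESRP2 did not pass (17.4 ± 1.45 CPM in KO and 19.4 ± 1.59 CPM in WT, −0.15), nor did KLF4 (0.15) or KLF5 (−0.04). GRHL1, GRHL2, GRHL3, OVOL1 and OVOL2, which hold cells epithelial, had no matching symbol in the day 2 counts.

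Other EMT-associated transcription factors went both ways, with 4 higher and 5 lower of 16 tested and a median log2 fold change of −0.002. The shares over all genes tested were 12.3% higher and 1262 of 11475 lower. The forkhead factor FOXC1 rose to 89.7 ± 2.63 CPM in KO, against 62.1 ± 2.54 CPM in WT (0.53, edgeR adjusted p 6.65e-11), SOX4 to 257 ± 4.98 CPM in KO, against 202 ± 13 CPM in WT (0.35), and the organizer gene GSC to 109.7 ± 6.4 CPM in KO, against 92.1 ± 1.21 CPM in WT (0.25). MSX2, a homeobox target of BMP signalling, fell (58.5 ± 2.02 CPM in KO and 72.3 ± 0.968 CPM in WT, −0.30). TWIST2, the closest relative of TWIST1 and named after its value was seen, had 5.01 ± 0.25 CPM in KO and 4.78 ± 0.183 CPM in WT, a difference within the spread of the libraries (0.07, edgeR adjusted p 0.792).

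Of the inducing ligands, receptors and SMADs, 3 rose and 5 fell of 21 tested, with a median of −0.008. Among all genes tested, 12.3% were higher and 1262 of 11475 were lower. The ligand gene FGF17 (45.02 ± 0.677 CPM in KO and 58.0 ± 1.46 CPM in WT, −0.37) and the inhibitory SMAD7 (93.7 ± 3.01 CPM in KO and 108.5 ± 2.93 CPM in WT, −0.21) fell. SMAD3, a transducer of TGF-beta and Nodal signals, rose (46.7 ± 0.985 CPM in KO and 36.9 ± 2.32 CPM in WT, 0.34), as did the Nodal co-receptor TDGF1 (735 ± 26.4 CPM in KO and 672 ± 10.6 CPM in WT, 0.13). Several of these genes overlap others in their exons, among them CTGF, SOX4, SMAD3, TDGF1 and ESRP2.

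**Figure D5:**
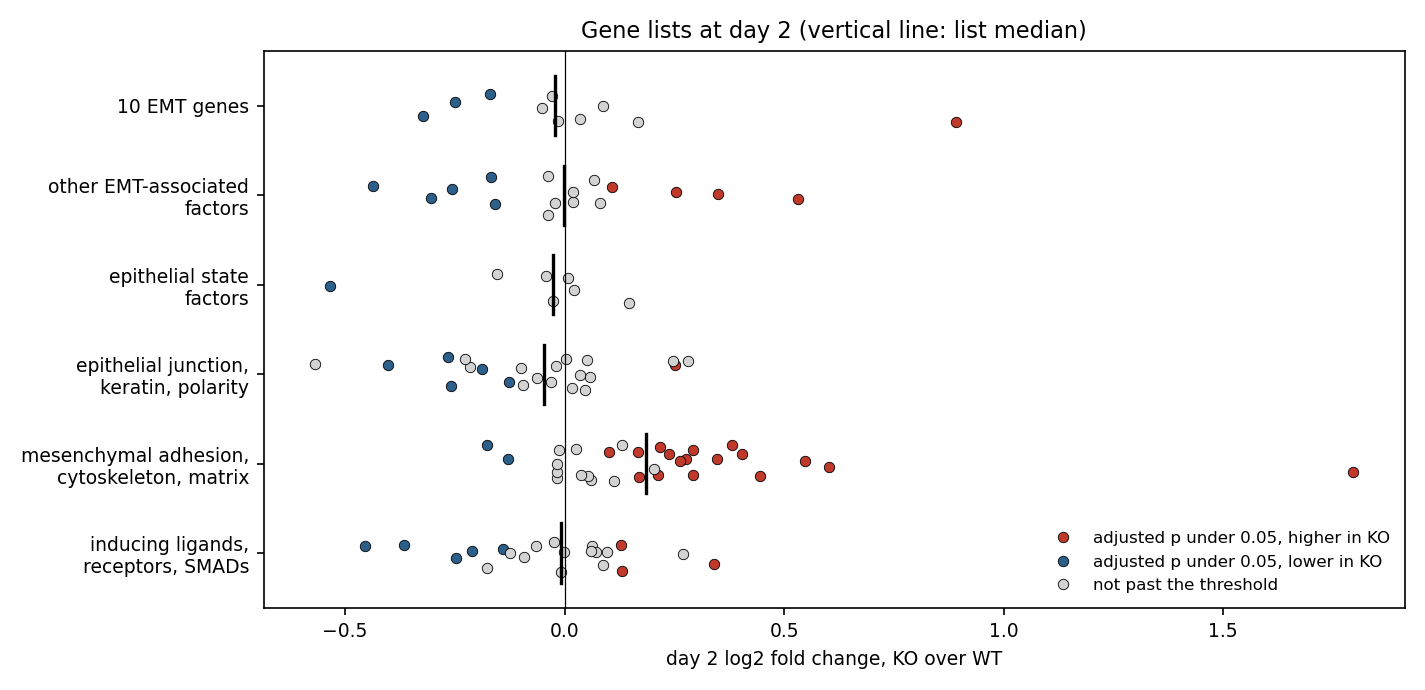
Day 2 log2 fold changes of SETD7 KO over WT for each tested gene of the EMT genes and of 5 related lists, scattered vertically within a list for legibility. Red and blue points passed at an adjusted p under 0.05, grey points did not, and black lines are list medians, 0.19 for the mesenchymal matrix list and between −0.05 and 0 for the others.

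At day 0 the same lists showed 2 genes higher and 6 lower by 1.5-fold of 30 mesenchymal genes kept, and 3 higher and 4 lower of 31 junction and keratin genes kept, against 4.81% higher and 8.77% lower over all genes. Of the inducing genes, 2 were higher and 5 lower of 17 kept, of the epithelial state factors 1 and 2 of 11, and of the other EMT factors 0 and 1 of 7. The largest ratios at 5 FPKM or more were those of NODAL (5.25 FPKM in KO and 1.13 FPKM in WT) and its feedback gene SMAD7 (7.83 FPKM in KO and 2.28 FPKM in WT). Among epithelial genes, CLDN4 had 7.26 FPKM in KO and 3.35 FPKM in WT, CLDN3 5.13 FPKM in KO and 10.1 FPKM in WT, ELF3 2.82 FPKM in KO and 7.75 FPKM in WT, and RBM47 22.8 FPKM in KO and 12.1 FPKM in WT. TNC had 7.06 FPKM in KO and 3.48 FPKM in WT, LOXL2 19.2 FPKM in KO and 32.2 FPKM in WT, SOX4 70.2 FPKM in KO and 58.1 FPKM in WT, and HMGA2 28.7 FPKM in KO and 26.6 FPKM in WT.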

How the data were processed

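The authors deposited day 2 as counts per gene and day 0 as FPKM, a unit scaled by the authors for length and depth, per the file headers. The submitters' processing notes list HISAT2, StringTie and the build GRCh38 and give no versions. The counter, its strand setting and any gene filter: not given in the sources used here. Each day was compared only within its table. An unheaded column of gene names beside the day 0 table was not used. Day 2 counts were filtered with filterByExpr (11475 of 11644 genes), scaled by TMM and tested with edgeR 4.0.16 in R 4.3.3 (robust quasi-likelihood F test, 2-sided, genotype only, Benjamini-Hochberg over all genes, threshold 0.05), with steps tested on simulated data. CPM are TMM-scaled. Intervals are 95% and unadjusted. Day 0 ratios are log2((KO FPKM + 1)/(WT FPKM + 1)) where either library reached 1 FPKM. Gene positions, exons and overlaps come from GENCODE release 29. Named beside the 10 genes were, in each list, the 4 smallest p at day 2 and the 2 largest day 0 ratios at 5 FPKM or more. One gene that this rule names is not reported here. Symbols were matched through older names. The genes, lists and tests were chosen with earlier results of these data known. Alternatives were other scalings (DESeq2 size factors, upper quartile), filters, the Wald test of DESeq2 1.42.0, voom of limma 3.58.1, a replicate block, leaving out each library, and day 0 pseudocounts, minimums and centring. Python 3.11.15 with pandas 2.3.3 and matplotlib 3.10.9 were used.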

Additional observations from a re-analysis of the deposited data

Results flagged for a closer look

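In 2 of the 6 EMT genes kept at day 0, the ratio there had one sign and the day 2 libraries separated the other way. In these, all 3 KO libraries at day 2 lay on the opposite side of all 3 WT libraries. For comparison, 37.7% of all 11475 genes tested at day 2 had no overlap in either direction. The share of all genes with opposite signs on both days was not counted. For EPCAM the log2 difference of KO from WT was −0.25 at day 2 and 0.40 at day 0, and for CDH2 it was −0.051 at day 2, which did not pass the test, and 0.19 at day 0. The same held for some named genes of the related lists, which were named for a small day 2 p or a large day 0 ratio. A small p favours genes without overlap at day 2. Other named genes separated at day 2 and kept their sign. They included SOX4 (0.35 at day 2 and 0.27 at day 0), COL5A2 (0.28 and 0.57) and TDGF1 (0.13 and 0.07), higher in KO. Lower in KO on both days were ESRP1 (−0.53 and −0.07), KRT19 (−0.19 and −0.54) and CTNND1 (−0.13 and −0.28). Higher in KO at day 2 and lower at day 0 were COL1A2 (0.55 at day 2 and −0.58 at day 0), CTGF (0.60 and −0.22), LOXL2 (0.40 and −0.72) and SMAD3 (0.34 and −0.16). Lower in KO at day 2 and higher at day 0 were NODAL (−0.46 and 1.56), SMAD7 (−0.21 and 1.43), KRT8 (−0.27 and 0.22), KRT18 (−0.26 and 0.41), HMGA2 (−0.16 and 0.11) and TNC (−0.13 and 0.85). None of these differences between days was tested, since day 0 has 1 library per genotype and its values are in another unit.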

How the results depend on the processing

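The count of EMT genes past the test at day 2 was 4 and ran from 3 to 5 over 13 alternatives, while the count of all genes past it was 2668 and ran from 2005 to 2669 (2005 to 2509 when 1 library was left out, 2372 with DESeq2). TWIST1, SNAI2 and VIM kept their direction and passed in all 13; EPCAM passed in 10 and CDH1 in 3. FN1, which never passed, ran from −0.054 to 0.016 when 1 library was left out and changed sign without KO replicate 2 (0.011) and without WT replicate 2 (0.016). The difference in the CDH1 to CDH2 ratio ran from 0.16 to 0.28 when 1 library was left out. At day 0, CDH1 passed 1.5-fold with a pseudocount of 0.1 FPKM, making the count of EMT genes 1, and the count of all genes fell to 616 with a pseudocount of 5 FPKM, against 1804; a larger pseudocount shrinks ratios by construction. With the replicate block 4 EMT genes and 2210 genes in all passed. Deviations of same-numbered KO and WT libraries from their genotype means had correlations of −0.073, −0.072 and −0.037, which shows no shared deviation. Deviations from a mean of 3 libraries are tied to each other. They therefore cannot settle whether the numbers mark a shared culture or day, which the labels do not say. Depth limits TWIST1 most at day 2, and at day 0 the 4 factors below 1 FPKM.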
